A study of Mus musculus with 2 samples.

Results

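Small leucine-rich proteoglycans are secreted proteins of the extracellular matrix, and 7 of their genes, Dcn, Bgn, Aspn, Lum, Prelp, Fmod and Ogn, were followed by symbol among the 31053 genes counted in a pair of mouse lung single-cell libraries. The mice carried NG2-CreERTM and the Ai14 tdTomato reporter, so that tamoxifen marks cells that express NG2 (gene Cspg4) and their progeny. They were given 2 mg tamoxifen per 30 g body weight and rested for 7 days. The Hypoxia library came from lungs of mice kept for 21 days at 10% inspired oxygen and the Normoxia library from lungs labelled as normoxic, with Cre, reporter and tamoxifen common to both. The labels speak of 3 replicates per group, but each group had 1 count matrix with no mark of a replicate on its cells, and whether animals were pooled is not stated. Each group was therefore 1 library, so no test between the groups was possible and every difference is between these libraries. Intervals are exact 95% intervals that cover counting error only.

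The proteins of this family share a core of leucine-rich repeats, and most carry chondroitin, dermatan or keratan sulphate chains. They bind collagen fibrils as these assemble and set their width and spacing, and decorin and biglycan also bind growth factors of the TGF-beta family. Decorin, biglycan and asporin form class I, lumican, fibromodulin and prolargin (Prelp) class II, and osteoglycin (Ogn) class III. In the lung they are products chiefly of fibroblasts and related stromal cells of the vessel and airway sheaths and the alveolar wall.

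Several of the genes lie next to each other (GENCODE M21, assembly GRCm38). Dcn (chromosome 10, 97479609 to 97518143) and Lum (97565128 to 97572703) are on the plus strand 47.0 kb apart, with no protein-coding gene between them. Aspn (chromosome 13, 49544443 to 49567565) and Ogn (49608046 to 49624501) are also on the plus strand, with the family gene Omd between them, and both lie inside Cenpp, which is on the minus strand and had 3 UMIs in all retained cells. Prelp (chromosome 1, 133910304 to 133921414, minus strand) and Fmod (134037254 to 134048277, plus strand) are 116 kb apart. Bgn (chromosome X, 73483602 to 73495933, plus strand) stands alone. All are protein-coding.

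The 250 bases before the start were taken from RefSeq (GRCm38.p6) for 5 of the 7 genes (those of Dcn and Lum were not analysed here), and those of Aspn, Ogn and Bgn are shown because the first 2 lie close together in the genome and their differences between the libraries were unlike in size, while Bgn was the member detected in most stromal cells. Capitals mark TATAAA or ACGTG on either strand. TATAAA, the core of a TATA box, was found in 12.4% of 32851 mouse promoters of this length, and ACGTG, the core of a hypoxia response element, in 16.6%.
Aspn, chr13:49544193-49544442, plus strand: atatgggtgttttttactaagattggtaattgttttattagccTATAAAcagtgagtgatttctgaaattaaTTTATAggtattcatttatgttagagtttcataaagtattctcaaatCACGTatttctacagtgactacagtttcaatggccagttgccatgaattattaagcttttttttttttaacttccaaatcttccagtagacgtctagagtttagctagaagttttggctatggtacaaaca
Ogn, chr13:49607765-49608014, plus strand: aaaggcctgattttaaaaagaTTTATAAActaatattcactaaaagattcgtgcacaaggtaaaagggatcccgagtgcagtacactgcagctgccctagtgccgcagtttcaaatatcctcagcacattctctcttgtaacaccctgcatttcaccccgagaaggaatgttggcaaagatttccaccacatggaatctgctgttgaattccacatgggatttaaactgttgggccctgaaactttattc
Bgn, chrX:73483351-73483600, plus strand: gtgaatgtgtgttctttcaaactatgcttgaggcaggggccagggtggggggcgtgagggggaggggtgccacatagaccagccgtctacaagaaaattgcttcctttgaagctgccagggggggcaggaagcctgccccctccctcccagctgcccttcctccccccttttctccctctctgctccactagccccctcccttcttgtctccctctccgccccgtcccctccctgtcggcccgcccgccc
The Aspn and Ogn windows each held 2 matches to TATAAA, which overlap in Ogn. In both windows these lay nearer the upstream end than the start. Aspn held 1 match to ACGTG. The GC content was 30.0% in Aspn and 42.0% in Ogn, against 64.4% in Bgn. Bgn, Fmod and Prelp held neither motif. TGANTCA (AP-1) and CAGACA (SMAD) had no match in the 5 windows. A match is a description of the letters and not of a bound site.

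The libraries held 373 Normoxia and 613 Hypoxia barcodes with 1323874 and 1989423 unique molecular identifiers (UMIs, each 1 captured transcript), and 293 and 453 cells were retained. They shared 2 barcodes, 1 of them among retained cells. The labels speak of sorted reporter cells, but Cspg4 had a UMI in 1 Normoxia and 2 Hypoxia cells, and lymphocytes made up 21.2% and 29.8% of the cells. Joint clustering without the family genes gave 15 clusters, of which 2 had more stromal markers (collagens, Mfap4, Pdgfra and others, none of them a family gene) than markers of any other class. Cluster 5 was fibroblast-like (39 Normoxia and 21 Hypoxia cells). Cluster 6 was myofibroblast-like (45 and 6 cells), with Hhip and Igfbp3 among its leading genes but also the pericyte genes Rgs5 and Kcnj8 and the smooth muscle genes Acta2, Tagln and Myl9. It had 6 of the myofibroblast markers, 4 pericyte markers and 4 smooth muscle markers above the threshold, so its name is less certain. Together these 84 Normoxia cells (28.7%, 23.6 to 34.2%) and 27 Hypoxia cells (5.96%, 3.96 to 8.55%) are called stromal. A share set by the sort cannot be told apart from a share in the lung.

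Counts of the family lay mostly in stromal cells in both libraries. Levels, as UMIs per 1000000 UMIs of the same cells (CPM), were set against lymphocytes, which do not make these proteins and so show the free RNA in the droplets. Of the 6 members with at least 20 UMIs, all 6 had a stromal level at least 10-fold above lymphocytes in Normoxia and in Hypoxia, as did 7.35% of 4206 and 9.08% of 3160 genes tested. Dcn had 8125 CPM in Normoxia stromal cells and 26.3 CPM (7 UMIs) in lymphocytes, a 308-fold difference (150 to 768). Bgn stood at 2387 against 3.76 CPM, with 1 UMI in 62 lymphocytes. Aspn and Prelp had 0 UMIs in lymphocytes of either library, which puts their stromal level at least 74.0-fold and 29.5-fold above them in Normoxia, with 3 UMIs taken as the limit of a count of 0. After each cell was thinned to 1000 UMIs, lymphocytes had 0 cells with a UMI of any member (62 Normoxia and 134 Hypoxia cells), whereas 83.1% of 83 Normoxia and 81.8% of 22 Hypoxia stromal cells had Bgn. Before thinning those shares were 94.0% of 84 and 96.3% of 27 cells, with a median of 3770.5 and 3693 UMIs per cell.

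**Figure D1:**
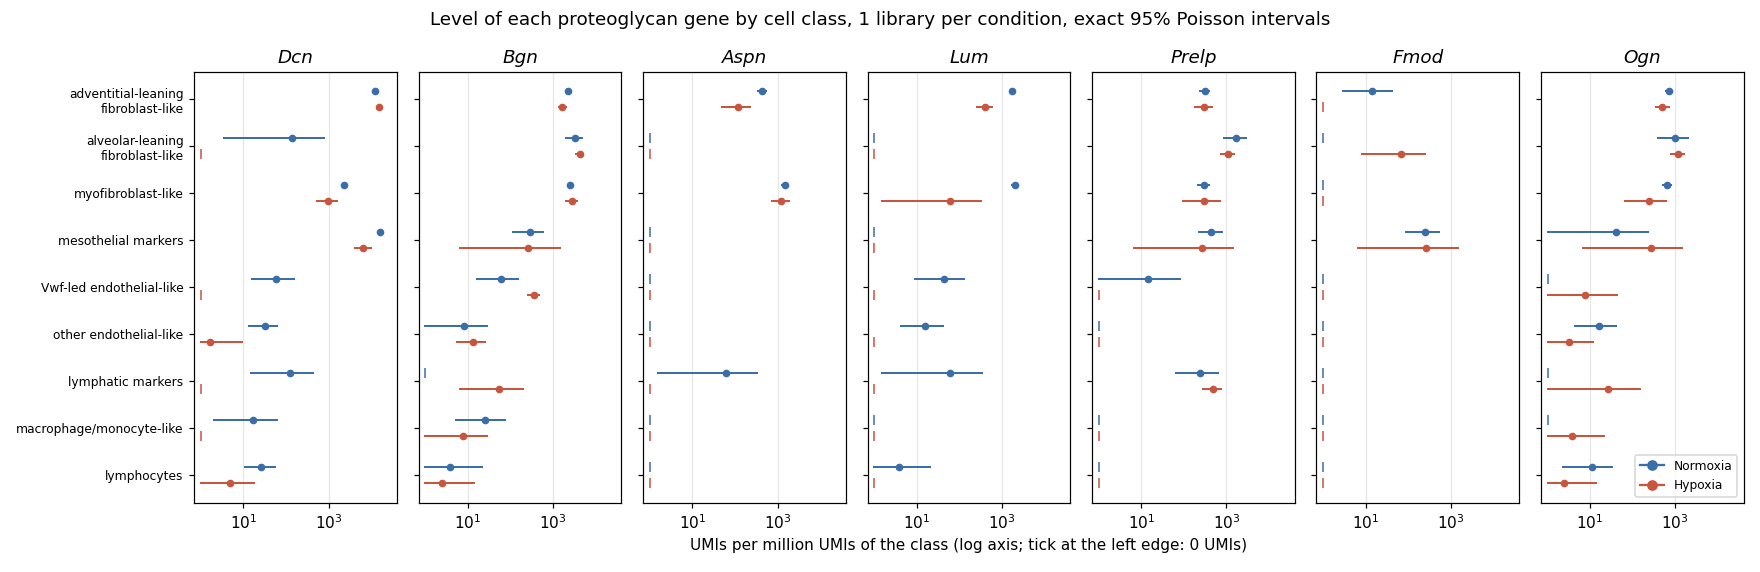
Level of each gene (CPM of the class, log axis) in 9 classes of cells, for the Normoxia and the Hypoxia library, with exact 95% Poisson intervals drawn from 1 upward and a tick at the left edge for 0 UMIs. Lum in adventitial-leaning cells sits at 1701 in Normoxia and 397 in Hypoxia, and Dcn in the same cells at 12230.4 and 15584.

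Over all retained cells the whole family was lower in Hypoxia. All 6 members with at least 20 UMIs were at least 2-fold lower, as were 8.13% of 9813 genes tested. Dcn, the decorin gene, stood at 3031 CPM in Normoxia against 693 CPM in Hypoxia, and the log2 ratio of Hypoxia over Normoxia was -2.13 (-2.23 to -2.03). The log2 ratio was -1.88 for Bgn (-2.07 to -1.70), -3.96 for Aspn (-4.58 to -3.40), -5.07 for Lum (-5.67 to -4.52), -1.37 for Prelp (-1.79 to -0.95) and -2.24 for Ogn (-2.62 to -1.87). Fmod, with 9 and 3 UMIs, was below the minimum. In such sums fewer cells of a type and less RNA per cell cannot be told apart, and the stromal cells held 32.7% of Normoxia and 7.17% of Hypoxia UMIs.

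The sums were therefore taken again with the Hypoxia levels of 9 cell classes weighted by the UMI shares those classes had in Normoxia, a step added after the values had been seen. The log2 ratio then stood at 0.11 for Dcn, -0.13 for Bgn and -0.10 for Prelp. It stood at -0.71 for Ogn, whose Hypoxia level in myofibroblast-like cells was 4 UMIs from 1 cell. For Aspn it was -0.65, but 17 of the 20 Hypoxia UMIs in the same 6 cells came from 1 cell, and without the top Aspn cell of each library it was -2.32. Lum had a log2 ratio of -2.81, and -3.47 without its top cells. With equal weights, then, the difference of Dcn, Bgn and Prelp was near 0, and that of Lum was the largest of the 6 with and without the top cells.

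**Figure D2:**
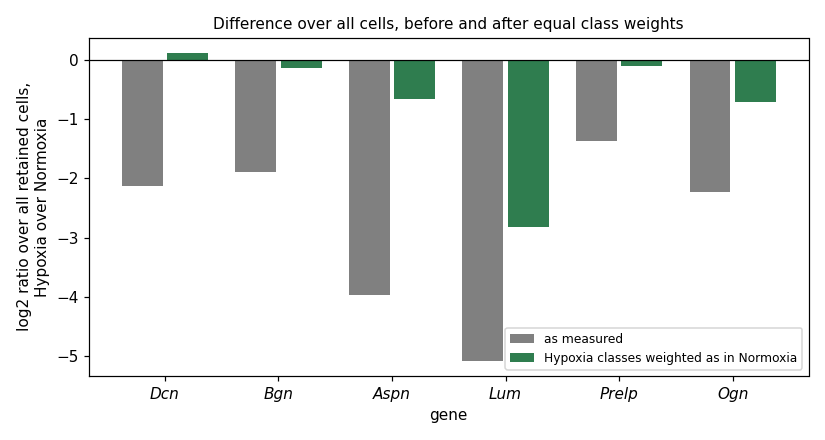
Log2 ratio of each gene over all retained cells, Hypoxia over Normoxia, as measured (grey) and with the Hypoxia cell classes weighted as in Normoxia (green). The green bars of Dcn, Bgn and Prelp lie between -0.13 and 0.11, while that of Lum reaches -2.81.

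Within stromal cells 2 of the 6 members, Lum and Aspn, were at least 2-fold lower in Hypoxia and 0 were at least 2-fold higher, beside 11.8% and 5.36% of 3620 genes. Lum, the keratan sulphate proteoglycan best known from the cornea, had 1782 CPM (648 UMIs) in the Normoxia library and 245 CPM (28 UMIs) in the Hypoxia library, with a log2 ratio of -2.86 (-3.46 to -2.32). Aspn, whose product binds collagen and TGF-beta, stood at 836 and 245 CPM, a log2 ratio of -1.77 (-2.38 to -1.21). With the stromal classes weighted by their UMI shares in Normoxia, the log2 ratio was -2.79 for Lum and -0.65 for Aspn. A single Hypoxia cell held 60.7% of the Aspn UMIs, and without the top cell of each library the Aspn log2 ratio was -2.96. The top Hypoxia cell of Lum held 46.4% of its UMIs, and without the top cells its log2 ratio was -3.61.

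The other members differed by less than 2-fold in stromal cells. Bgn had 2387 and 2480 CPM, a log2 ratio of 0.06 (-0.14 to 0.25). Ogn had 693 and 631 CPM, a log2 ratio of -0.14 (-0.53 to 0.25). Dcn had 8125 and 9429 CPM, a log2 ratio of 0.21 (0.11 to 0.32), and this sign was not stable. It was -0.19 without a mitochondrial maximum, -0.24 with a maximum of 10% and -0.12 in fibroblast-like cells alone. Prelp had 333 and 500 CPM, a log2 ratio of 0.59 (0.11 to 1.05). With the stromal classes weighted as in Normoxia, the log2 ratio was 0.24 for Dcn, -0.16 for Bgn, -0.76 for Ogn and -0.10 for Prelp. Fmod had 3 and 2 UMIs, and at this depth no difference was detectable. The median log2 ratio of all 3620 genes was -0.09.

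At 1000 UMIs per cell the shares of stromal cells with a UMI were set side by side. Lum was detected in 57.8% of Normoxia stromal cells (46.5 to 68.6%) and 18.2% of Hypoxia stromal cells (5.19 to 40.3%). Aspn was detected in 38.6% (28.1 to 49.9%) and 18.2% (5.19 to 40.3%), intervals that overlap. Dcn was detected in 69.9% (58.8 to 79.5%) and 68.2% (45.1 to 86.1%). Unthinned, Lum was seen in 77.4% and 29.6% of cells, Aspn in 64.3% and 25.9%, and Dcn in 81.0% and 59.3%. Thinning left out 1 Normoxia cell, which was adventitial-leaning, and 5 Hypoxia cells, all of the alveolar-leaning class described next, which had 0 UMIs of Dcn, Lum and Aspn.

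**Figure D3:**
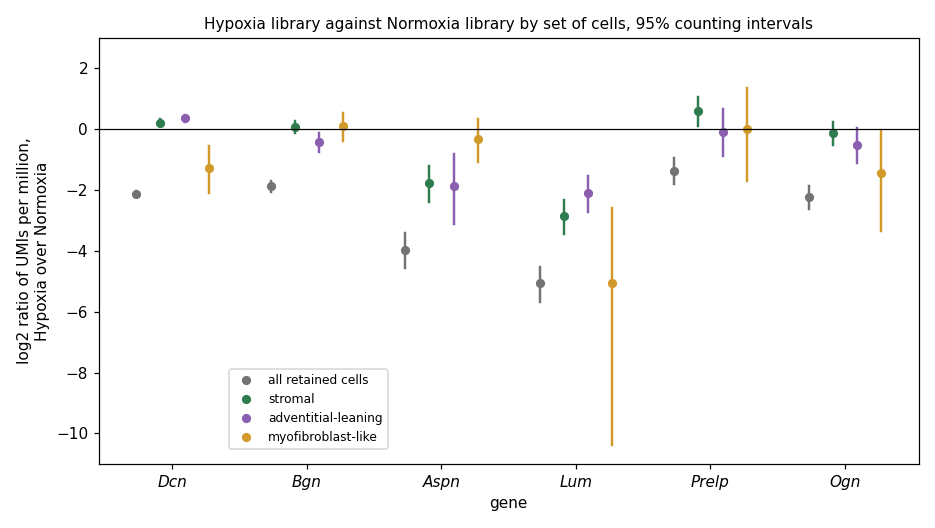
Log2 ratio of CPM, Hypoxia over Normoxia, for 6 genes in 4 sets of cells, with 95% counting intervals; the horizontal line is no difference. Over all cells every gene lies below 0, and within stromal cells Lum (-2.86) and Aspn (-1.77) lie below -1.

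The fibroblast-like cluster held cells of different kinds, and the libraries held them in different proportion. Cells were set apart where their UMIs of 7 alveolar fibroblast markers (Inmt, Npnt, Limch1 and others) exceeded 2 times those of 8 adventitial markers (Pi16, Mfap5, Clec3b and others). The marker lists do not hold a family gene, but the split was made after Dcn had been seen in these cells. It gave 1 Normoxia and 8 Hypoxia alveolar-leaning cells and 38 Normoxia and 13 Hypoxia adventitial-leaning cells, the latter defined only as the rest of the cluster. On a log2 scale with 0.5 added to each sum, the highest adventitial-leaning cell had a ratio of 0.24 and the lowest alveolar-leaning cell 2.05, with no cell between. The log2 ratio was below 2 in size in 16 cells. All of these were adventitial-leaning, so that class was mixed by these markers. For example, a Normoxia cell in it had 51 alveolar against 43 adventitial UMIs. Npnt had 49 UMIs in 3 of the 8 Hypoxia alveolar-leaning cells and 0 in all adventitial-leaning cells. Other alveolar markers were shared by both classes. Inmt was found in 27 of 38 Normoxia and 10 of 13 Hypoxia adventitial-leaning cells, and Tcf21 in 16 and 7 of them.

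The 8 Hypoxia alveolar-leaning cells had 0 UMIs of Dcn, Lum and Aspn in 29265 UMIs. This allows a level of up to 103 CPM by the limit of 3 UMIs and 126 CPM by the exact interval. All 8 had Bgn, between 1 and 68 UMIs each, a level of 4237 CPM (3524 to 5052). Ogn was found in 4 of them (34 UMIs, 1162 CPM) and Prelp in 5 (32 UMIs, 1093 CPM). The single Normoxia cell had 1 UMI of Dcn, 0 of Lum and Aspn, 23 of Bgn, 7 of Ogn and 12 of Prelp. These cells thus held a part of the family only. They were shallow, with a median of 888 UMIs in Hypoxia, but the 3 deepest, with 5502 to 11323 UMIs, also lacked Dcn, Lum and Aspn. Without the mitochondrial maximum there were 2 Normoxia and 14 Hypoxia such cells, and Lum and Aspn were still at 0, while Dcn had 15 UMIs in 3 of the 14 (323 CPM). With a maximum of 10%, Dcn had 39 UMIs in 3 of 13 Hypoxia cells (811 CPM). Both Normoxia cells had Dcn under either setting, with 6 UMIs (594 CPM). A median alveolar-leaning Hypoxia cell had 2 of the 7 members, against 4 in adventitial-leaning Hypoxia cells and 5 in those of Normoxia. These counts were not matched for depth, with a median of 888 UMIs against 5170 and 5433. The highest count in an alveolar-leaning Hypoxia cell was 4, and the Normoxia cell also had 4.

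In the adventitial-leaning cells Dcn was the member with no missing cell. All 38 Normoxia and all 13 Hypoxia cells had it, with a lowest, median and highest of 0.42, 10.2 and 51.2 UMIs per 1000 UMIs of the cell in Normoxia and 3.95, 13.5 and 32.5 in Hypoxia. The ranges overlap nearly throughout. Summed, Dcn had 12230.4 CPM in Normoxia against 15584 CPM in Hypoxia (log2 ratio 0.35, 0.25 to 0.45), and 0.22 with equal weight per cell.

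Lum did not follow Dcn in the same cells. In the 13 Hypoxia cells, from the deepest to the shallowest, Lum had 0, 0, 3, 13, 3, 3, 0, 0, 1, 0, 1, 0 and 3 UMIs, where Dcn had 205, 116, 91, 80, 114, 119, 36, 54, 17, 79, 120, 21 and 8. The 38 Normoxia cells had a lowest, median and highest of 0, 7 and 47 Lum UMIs. Lum was at 0 in 6 of the 13 Hypoxia cells and 5 of the 38 Normoxia cells, all of which had Dcn. The level of Lum was 1701 CPM in Normoxia against 397 CPM in Hypoxia (log2 ratio -2.10, -2.72 to -1.53). The top Hypoxia cell held 48.1% of the UMIs, and without the top cells the log2 ratio was -2.77. Against the UMIs of Dcn from the same cells, which removes the total from the comparison, Lum stood at 13.9 UMIs per 100 Dcn UMIs in Normoxia against 2.55 in Hypoxia (log2 ratio -2.45, -3.07 to -1.88).

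Aspn, with fewer counts, was also lower in Hypoxia, at 429 CPM (92 UMIs, 22 of 38 cells) and 118 CPM (8 UMIs, 4 of 13 cells), a log2 ratio of -1.87 (-3.12 to -0.83). Lum and Aspn were the 2 of 6 members at least 2-fold lower in these cells, beside 11.7% of 2126 genes. Bgn had 2246 and 1661 CPM, a log2 ratio of -0.43 (-0.74 to -0.14), which became -0.084 with equal weight per cell. Ogn had 718 and 500 CPM, a log2 ratio of -0.52 (-1.10 to 0.02). Prelp had 312 and 294 CPM, a log2 ratio of -0.09 (-0.89 to 0.65), so the higher Prelp of Hypoxia stromal cells was not seen inside this class. A Hypoxia cell with 8128 UMIs had neither marker list, and without it the log2 ratio of each of the 6 members stayed inside its interval. The summed adventitial markers stood at 11140 CPM in Normoxia and 13526 CPM in Hypoxia, with all 8 detected in both. The same markers took part in setting the class, so their sums do not show separately that its cells were alike.

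**Figure D4:**
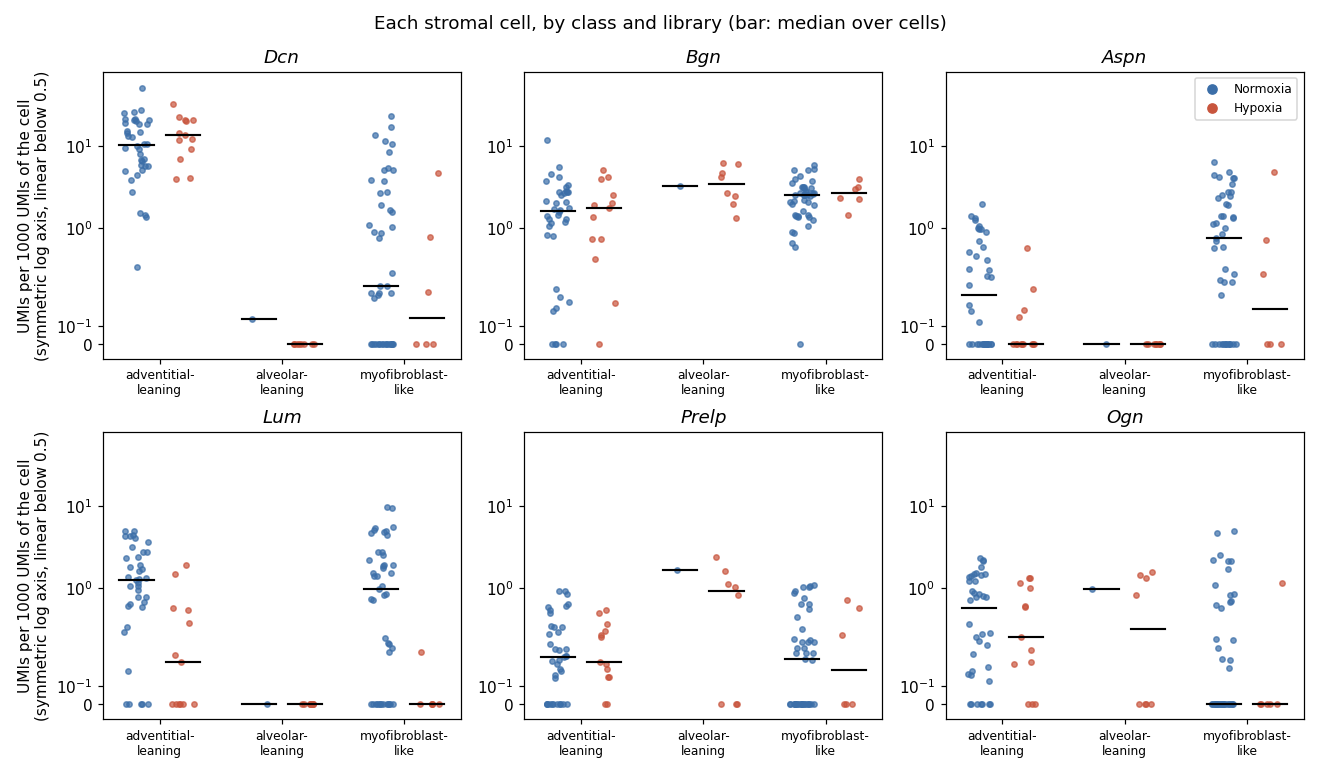
UMIs of 6 genes per 1000 UMIs of each stromal cell (symmetric log axis) in 3 classes, Normoxia and Hypoxia, with the median as a bar. In adventitial-leaning cells the Dcn medians are 10.2 and 13.5 and those of Lum 1.28 and 0.23, and alveolar-leaning Hypoxia cells lie at 0 for Dcn, Lum and Aspn.

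Myofibroblast-like cells numbered 45 in Normoxia and only 6 in Hypoxia, so values for Hypoxia rest on 16831 UMIs. Of the 6 members, 3 were at least 2-fold lower in Hypoxia, beside 21.8% of 1224 genes. Lum had 283 UMIs in 32 of 45 Normoxia cells (1994 CPM) and 1 UMI in 1 of 6 Hypoxia cells (59.4 CPM), a log2 ratio of -5.07 (-10.38 to -2.58). Dcn had 329 UMIs in 29 cells (2318 CPM) and 16 UMIs in 3 cells (951 CPM), a log2 ratio of -1.29 (-2.11 to -0.56). Ogn had 91 UMIs (641 CPM) and 4 UMIs from 1 cell (238 CPM), a log2 ratio of -1.43 (-3.34 to -0.03). Bgn had 2557 and 2733 CPM, a log2 ratio of 0.10 (-0.38 to 0.54), and was present in 44 of 45 and 6 of 6 cells. Aspn had 1493 and 1188 CPM, a log2 ratio of -0.33 (-1.07 to 0.33), but 17 of its 20 Hypoxia UMIs came from 1 cell. With a mitochondrial maximum of 10% (46 and 8 cells), Aspn had -0.89 (-1.53 to -0.29) and Bgn -0.40 (-0.81 to -0.01). Dcn had -2.22 and Ogn -2.03 there. Without a maximum (41 and 5 cells), Aspn had -0.12 and Bgn 0.13. The summed pericyte markers of this cluster stood at 2402 CPM in Normoxia and 1367 CPM in Hypoxia, and the smooth muscle markers at 2318 and 5347 CPM. Their part in these differences was not tested.

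The members were spread differently over the stromal classes of the Normoxia library. Dcn stood at 12230.4 CPM in adventitial-leaning and 2318 CPM in myofibroblast-like cells, where 16 of 45 cells had Bgn without Dcn. Aspn went the other way, with 429 CPM (346 to 526) and 1493 CPM (1299 to 1709). Lum, at 1701 CPM (1531 to 1884) and 1994 CPM (1768 to 2240), and Bgn, at 2246 and 2557 CPM, were close in both. In myofibroblast-like Normoxia cells Lum and Aspn were found together in 25 cells, Lum alone in 7 and Aspn alone in 7.

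Fmod, whose keratan sulphate protein binds collagen I, was at the edge of detection, with 12 UMIs in all. Of these, 7 were in 5 cells, outside the stromal clusters and grouped in cluster 9 with Vwf-led endothelial cells, that had all 6 mesothelial markers (Upk3b, Msln, Wt1 and others), 4 in Normoxia and 1 in Hypoxia. Each of the 5 had Fmod, with 1, 1, 1 and 3 UMIs in Normoxia and 1 UMI in Hypoxia. The same 4 Normoxia cells had 39 to 166 UMIs of Dcn and the Hypoxia cell 25, and all 5 had Prelp (1 to 4 UMIs), while Lum and Aspn were at 0. The 4 Normoxia cells reached 15906 CPM of Dcn (14374 to 17556), against 12230.4 CPM in adventitial-leaning cells, with 166 of their 394 UMIs in 1 cell. Per 1000 UMIs of the cell they had 7.42 to 23.2, inside the adventitial-leaning range of 0.42 to 51.2. In Hypoxia the order was the reverse, at 6569 CPM in 1 cell against 15584 CPM. The cells with mesothelial markers were noticed after their values were seen, and 6 other cells outside the stromal clusters had 1 mesothelial marker.

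Bgn was also found in endothelial cell-like cells. The leading genes of cluster 9 began with Scgb1a1, a club cell gene, and Vwf, the von Willebrand factor gene. This cluster had 11 endothelial markers and 1 club or ciliated cell marker above the threshold. Its cells without mesothelial markers are called Vwf-led. Bgn there had 4 UMIs in 2 of 16 Normoxia cells (59.0 CPM, 16.1 to 151) and 46 UMIs in 11 of 23 Hypoxia cells (350 CPM, 256 to 467). The log2 ratio was 2.57 (1.12 to 4.51), opposite in sign to that of adventitial-leaning cells. Free RNA at the lymphocyte level would give 0.32 UMIs in those Hypoxia cells, but that level rests on 1 UMI (0.06 to 13.7 CPM). All 11 cells had Vwf and 0 had Dcn or Col1a1, while the Normoxia Vwf-led cells had 4 UMIs of Dcn and 3 of Lum. Of the 6 Hypoxia myofibroblast-like cells, 3 also had Bgn without Dcn, so lack of Dcn does not exclude stromal RNA in a droplet. The part of such RNA was not tested. Of the 46 UMIs, 21 came from 2 cells with Acta2, the smooth muscle actin gene, and without cells that had Acta2 the Hypoxia level was 210 CPM. Other endothelial cell-like cells had 7.95 and 13.1 CPM of Bgn. After thinning, Bgn was found in 0 of 15 Normoxia and in 5 of the 21 Hypoxia Vwf-led cells.

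Prelp was detected in a further small group. Cluster 14, unnamed by the rule but led by the lymphatic endothelial genes Ccl21a, Mmrn1, Reln and Prox1, had Prelp in 3 of 4 Normoxia cells (4 UMIs, 242 CPM, 66.0 to 620) and 4 of 6 Hypoxia cells (18 UMIs, 481 CPM, 285 to 760). The named endothelial cell-like clusters had 1 Prelp UMI, in a Normoxia cell. Lymphocytes had 0 UMIs, which puts the Hypoxia level of this cluster at least 65.3-fold above them. Dcn had 2 UMIs and Lum 1 UMI here in Normoxia and 0 in Hypoxia.

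Of the other 11 family genes, 2 had at least 20 UMIs in stromal cells. Ecm2 had 264 CPM in Normoxia against 140 CPM in Hypoxia (log2 ratio -0.91, -1.78 to -0.14), and Podn 74.2 and 131 CPM, a log2 ratio of 0.82 (-0.19 to 1.79). Epyc had 18 UMIs in Normoxia and 0 in Hypoxia. Kera, Optc, Nyx and Chad had 0 UMIs in stromal cells of either library.

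Enzymes that build the sugar chains were thinly counted. Of 18 genes of chondroitin and dermatan sulphate synthesis, 5 reached 20 UMIs in stromal cells. Of these 1 was at least 2-fold lower, beside 11.8% of 3620 genes. It was Dse, an epimerase that makes dermatan sulphate, at 85.2 and 35.1 CPM (31 and 4 UMIs). Its log2 ratio was -1.28, with an interval that holds 0 (-3.25 to 0.22). Chpf and Chst12 had log2 ratios of -0.33 and -0.08. Of 6 keratan sulphate genes 1 was tested, B4galt1, with a log2 ratio of 0.88 (-0.14 to 1.85). Chst1, a keratan sulphate sulphotransferase, had 13 UMIs in Normoxia and 1 in Hypoxia.

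Collagens, the partners of the family in the matrix, differed in sign among the most abundant genes in stromal cells. Of 12 fibrillar and fibril-associated collagen genes 11 were tested, of which 3 were at least 2-fold lower and 0 higher, with a median log2 ratio of -0.63. Over all 3620 stromal genes 11.8% were that much lower and 5.36% higher, and the median was -0.09. The 3 with most UMIs were within 2-fold. Col3a1 had 4306 and 3058 CPM (log2 ratio -0.49, -0.67 to -0.33), Col1a2 1996 and 2804 CPM (0.49, 0.30 to 0.68) and Col1a1 1740.5 and 2024 CPM (0.22, -0.01 to 0.44). In adventitial-leaning cells 4 of 9 collagen genes tested were at least 2-fold lower, with a median of -0.72, beside 11.7% of all genes tested there and a median of -0.09.

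The remaining lists held genes past 2-fold in either direction in stromal cells, to be read beside the 11.8% lower and 5.36% higher of all genes. Among 12 genes of elastic fibres and other matrix partners 1 was at least 2-fold lower and 1 higher, the latter Mfap4, an elastic fibre glycoprotein (844 and 2471 CPM, log2 ratio 1.55, 1.31 to 1.79). In adventitial-leaning cells Mfap4 had 1258 and 1073 CPM, a log2 ratio of -0.23. Mfap5 and Fbln1 had stromal log2 ratios of 0.05 and -0.38. Among 15 genes of collagen processing 10 were tested, with 1 lower and 1 higher. Serpinh1, the collagen chaperone, had 1177 and 815 CPM (log2 ratio -0.53, -0.87 to -0.20), Pcolce -0.40 and Pcolce2 0.36. Of 14 genes for ligands and receptors of decorin or biglycan 6 were tested and 2 were lower. Lrp1, a receptor that takes up decorin, had 478 and 640 CPM (0.42, 0.00 to 0.82), Tgfb3 -0.21 and Cd44 -0.53. Of 18 large and basement membrane proteoglycan genes 8 were tested, with 3 lower and 3 higher, among them Sdc4 (137 and 315 CPM, log2 ratio 1.20) and Gpc3 (135 and 315 CPM, 1.23), while Sdc2 stood at 0.04.

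The genes whose level was most like that of each member over 23 units (clusters of at least 10 cells in 1 library) were matrix and stromal genes. The correlation is across units that share libraries and depth and is given as a description. Among these units only cluster 5 in each library and cluster 6 in Normoxia were stromal, as cluster 6 had 6 Hypoxia cells. A gene found mostly in stromal cells thus reaches a high r by the choice of units. The values between members have the same limit. With log2(CPM + 10) and among 6561 genes, Dcn was most like Fbln1 (Pearson r = 0.96), Bicc1 and Aebp1, Lum like Dpt (0.96), Col6a3 and Pamr1, and Aspn like C1qtnf7 (0.99), Wnt5a and Ism1. Ogn was most like Sod3 (0.95), Dpt and Col6a3, Bgn like Lama4 (0.95), Mgp and Galnt15, and Prelp like Gas1 (0.99), Bicc1 and Galnt15. Between members r was highest for Aspn with Lum (0.95) and Dcn with Prelp (0.95) and lowest for Aspn with Dcn (0.74).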

How the data were processed

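For each barcode and gene, the authors deposited unscaled UMI counts of 1 Normoxia and 1 Hypoxia library of mouse lung cells, made with Chromium Single Cell 3' v3.1 chemistry. Per the file headers the counts came from Cell Ranger 3.1.0, and per the labels from genome build mm10. Counting by Cell Ranger collapses amplified copies. It reads the strand of the transcript, and 3' counts are not scaled to gene length, so levels were compared for each gene between cells and not between genes.

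The 7 genes, the marker and gene lists and the comparisons were chosen with earlier results of these data known. Barcodes with 200 to 6000 genes and at most 5% mitochondrial UMIs were kept. Cells of both libraries were clustered together in scanpy 1.11.5 after scaling to 10000 UMIs, with 2000 variable genes, 15 components, 15 neighbours and Leiden resolution 1.0, and without the family genes. A marker counted for a cluster when found in at least 25% of its cells at 2 times or more the median over clusters. Names follow the class with most markers, at least 3, unless the 10 leading genes went against it. Scrublet marked 1 Normoxia and 2 Hypoxia cells, which were kept in the main result.

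UMIs were summed per class and library and divided by all UMIs of the class (CPM). Sums have exact Poisson intervals, shares exact Clopper-Pearson intervals and ratios exact conditional binomial intervals, computed in scipy 1.17.1. With 1 library per group there was no test. Genes with at least 20 UMIs entered the counts past 2-fold. The named genes were the 7 members, the 3 genes most like each member with at least 50 UMIs, and up to 3 genes with most stromal UMIs of each list. On simulated Poisson counts of 3620 stromal genes, 96.3% of the intervals of unchanged genes held the true value. The intervals assume the same model, so this checks their calculation only. Spread between cells or animals was not simulated. Alternatives were other filters, doublet removal, other clusterings, stromal cells chosen one by one, other scalings, equal weight per cell, removal of the top cell, subtraction of the lymphocyte level and other thinning depths. The split into adventitial-leaning and alveolar-leaning cells, the cells with mesothelial markers and the equal class weights were added after the values had been seen.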

Additional observations from a re-analysis of the deposited data

Results flagged for a closer look

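In 2 genes the log2 ratio of Hypoxia over Normoxia had opposite signs in different cells with both counting intervals clear of 0, and the difference between the classes was not tested, since each group had 1 library. Dcn had 0.35 in adventitial-leaning and -1.29 in myofibroblast-like cells, the latter resting on 16 Hypoxia UMIs of which 13 came from 1 cell. Bgn had -0.43 in adventitial-leaning and 2.57 in Vwf-led endothelial cell-like cells.

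The barcodes left out by the filters, 80 in Normoxia and 160 in Hypoxia, also held family transcripts above the lymphocyte level. They had 215 and 34 UMIs of Dcn, 9 and 4 of Lum, 6 and 10 of Aspn, 20 and 32 of Ogn, 41 and 108 of Bgn and 19 and 24 of Prelp, and 9 Fmod UMIs in Normoxia. All but 1 of these UMIs, a Dcn UMI in Normoxia, were in barcodes above the mitochondrial maximum.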

How the results depend on the processing

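No paired analysis was possible because each group had 1 library, and for the same reason neither library could be left out. A maximum of 4000 genes, Leiden resolution 0.5 and clustering with the family genes each gave 84 and 27 stromal cells. Their stromal log2 ratios equalled the main ones. Of the alternative log2 ratios, 90 in stromal cells, 41 over all retained cells and 26 in adventitial-leaning cells stayed inside the counting interval of the main value. In the same order, 4, 8 and 4 moved outside that interval with the sign kept. Where that interval lay clear of 0, the sign changed 3 times, each for Dcn in stromal cells, which had -0.19 without a mitochondrial maximum, -0.24 with a maximum of 10% and -0.12 in fibroblast-like cells alone. Where it held 0, the sign in stromal cells changed for Ogn (0.0092 with the 10% maximum) and Bgn (-0.072 without the top cells). It also changed for Fmod, with 3 and 2 UMIs in the main result (-0.68 with the 10% maximum and -0.21 with cells chosen one by one). With the 10% maximum, Fmod had 17 UMIs in 7 of 51 Normoxia adventitial-leaning cells and 0 UMIs in 15 Hypoxia cells (log2 ratio below -0.27). Alveolar-leaning cells had 0 and 4 Fmod UMIs there. With equal weight per cell and without the top cell of each library, Dcn in stromal cells stood at 0.023 and 0.10. Without the top cells, Lum stood at -3.61 and Aspn at -2.96. The cause was not tested. Over all retained cells Dcn stood at -2.32 without a mitochondrial maximum, -2.30 with 10% and with doublets removed, and -2.34 with equal weights and without the top cells, where Lum had -5.87 and Aspn -5.19. Ogn had -2.68 with equal weights. In adventitial-leaning cells Dcn stood at 0.20 with the 10% maximum and 0.22 with equal weights, Bgn at -0.084 with equal weights and Lum at -2.77 without the top cells. With the 10% maximum this class held 51 Normoxia and 15 Hypoxia cells, against 38 and 13 in the main result, so it was not the same set of cells.

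Shares of stromal cells with a UMI follow the thinning depth. At 500 UMIs Bgn was found in 66.7% and 59.3% of Normoxia and Hypoxia cells. At 2000 UMIs the Normoxia shares were 71.6% for Lum, 54.3% for Aspn and Ogn, 95.1% for Bgn and 43.2% for Prelp, and Ogn had 61.9% in Hypoxia. Not thinned, they were 81.0% for Dcn, 77.4% for Lum, 64.3% for Aspn, 61.9% for Ogn and Prelp and 94.0% for Bgn in Normoxia, and 55.6% for Ogn, 96.3% for Bgn and 70.4% for Prelp in Hypoxia. The lymphocyte level was 0 CPM for Hypoxia Dcn and Normoxia Lum in T or NK cell-like cells alone, and for Hypoxia Ogn and Bgn of both libraries in B cell-like cells alone. With a minimum of 50 UMIs, 10.6% of genes in stromal cells were past 2-fold. Hypoxia values rest on 27 stromal cells, 6 of them myofibroblast-like, which limits every statement on the rarer members.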
